A study of Rattus norvegicus with 8 samples.

Results

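The genes described are Elavl1, Elavl2, Elavl3, Elavl4, Nova1, Celf4, Fmr1, Cpeb1, Stau2 and Pum2, which encode RNA-binding proteins that act in neurons. They are 10 of the 18803 features measured, and the list was selected on a comparison of the Y+I with the vehicle arrays, whose results were known. That difference is therefore given for the members as a description, and whether a member passed the limma threshold is not read as a test. Members were found by the gene name in the scanner files for 9 genes and through a RefSeq synonym for Celf4, which the files list as Brunol4. The 10 genes had 14 probes, and all 14 passed the filter on dim probes. Nova1 and both Fmr1 probes passed only through the vehicle arrays. The other 8 genes were well above background on all 8 arrays by their brightest probe.

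The arrays measured hippocampal RNA of male Sprague Dawley rats aged 3 months. One group of 4 animals was given Y+I for 7 days, the combination of yohimbine, an antagonist of alpha-2 adrenergic receptors, and imipramine, a tricyclic antidepressant. The other group of 4 was given vehicle for 7 days, and the labels of both groups also give a time of 2 hours. Doses and routes are not given in the sources used here. Each animal had its own array. The labels do not say how the hippocampi were dissected, so every value is an average over all cells in the tissue piece.

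RNA-binding proteins decide what happens to a transcript after it is made. Elavl proteins (also called Hu proteins) bind U-rich and AU-rich stretches and mostly stabilise their mRNAs; Elavl1 is found in most cells, and Elavl2, Elavl3 and Elavl4 mainly in neurons. Nova1 regulates splicing, and Celf4 binds many mRNAs of synaptic proteins. The Fmr1 protein, which is lost in fragile X syndrome, represses translation near synapses. Cpeb1 controls poly(A) tail length and translation, Stau2 carries mRNAs into dendrites, and Pum2 is a translational repressor.

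Values are log2 signals relative to the 75th percentile of all probes on the same array, so 0 is that percentile. Probes differ in how brightly they hybridise, so levels are compared between animals and never between genes. The 75th percentile itself was 1883, 1408, 1971 and 1045 intensity units for Y+I animals 1 to 4, against 2030, 2041, 1939 and 2106 units for vehicle animals 1 to 4. The share of spots well above background was 64.4% to 74.8% on Y+I arrays, against 76.4% to 79.7% on vehicle arrays. No spot was saturated. The median feature had an SD of 0.239 among Y+I arrays and 0.134 among vehicle arrays. All 8 arrays lay on 1 slide with each group on a row of its own, so the effects of row and of drug cannot be told apart. The number of animals limits the precision.

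Elavl4 (HuD), the neuronal family member best known for stabilising mRNAs of growth and plasticity proteins, was the member whose brightest probe differed most between the groups. Its probe lies at chr5:131672015-131672074 on the minus strand of rat build rn4. It read 1.80, 1.89, 1.79 and 1.91 in Y+I animals 1 to 4, against 2.62, 2.34, 2.56 and 2.48 in vehicle animals 1 to 4. Every Y+I animal was below every vehicle animal, and the Y+I animals lay close together. The means were 1.85 ± 0.06 in Y+I and 2.50 ± 0.12 in vehicle (SD, n = 4 each), a log2 difference of -0.65 ± 0.09 (SE), or 1.57-fold lower in Y+I.

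Elavl4 was the 1 of 10 members that passed the limma threshold, and it was lower. Across all features 2.33% passed in either direction, 1.60% as lower and 0.739% as higher. It was also the 1 member whose groups did not overlap, against 11.7% of all features in either direction, 6.65% lower and 5.04% higher. Of all 18803 features, 660 (3.51%) had a difference as low as that of Elavl4 or lower. Nothing is read from these shares, because this contrast chose the members. Over 21 alternative analyses the difference ran between -0.70 and -0.61. It no longer passed the threshold in 3 of them, which include leaving out vehicle animal 4 and leaving out Y+I animals 2 and 3 together. All 21 repeat the contrast that chose the members, so they are no support for the difference.

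The other 3 Elavl genes did not pass the threshold. Elavl1 (HuR), the widely expressed member (probe at chr12:1499916-1499975, plus strand), read 0.86, 1.32, 0.91 and 1.12 in Y+I animals, against 0.88, 0.95, 0.87 and 0.84 in vehicle animals. Its groups overlapped, with Y+I animals 2 and 4 above all vehicle animals and the other Y+I animals among them. The log2 difference was 0.16 ± 0.12 (SE). Elavl2 (HuB, chr5:111179274-111179333, minus strand) read 1.35, 1.75, 1.47 and 1.74 in Y+I animals, against 0.79, 1.41, 1.63 and 1.40 in vehicle animals. Here vehicle animal 1 was the lowest of all 8, and the difference was 0.27 ± 0.19.

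Elavl3 (HuC), a protein of mature neurons, is read by a probe at chr8:21132441-21132500 on the minus strand. Its sequence is shown because this probe split the Y+I animals most plainly among the Elavl genes, and no base in it is singled out.
Elavl3 probe: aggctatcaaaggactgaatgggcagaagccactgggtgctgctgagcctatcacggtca
It read -0.29, -0.89, -0.22 and -0.80 in Y+I animals, against -0.26, -0.20, -0.25 and -0.21 in vehicle animals. The vehicle animals were nearly equal, and Y+I animals 2 and 4 stood well below them while Y+I animals 1 and 3 did not. The means were -0.55 ± 0.34 in Y+I and -0.23 ± 0.03 in vehicle (SD, n = 4 each), a difference of -0.32 ± 0.16 (SE). Without Y+I animals 2 and 4 the difference was -0.02.

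**Figure D1:**
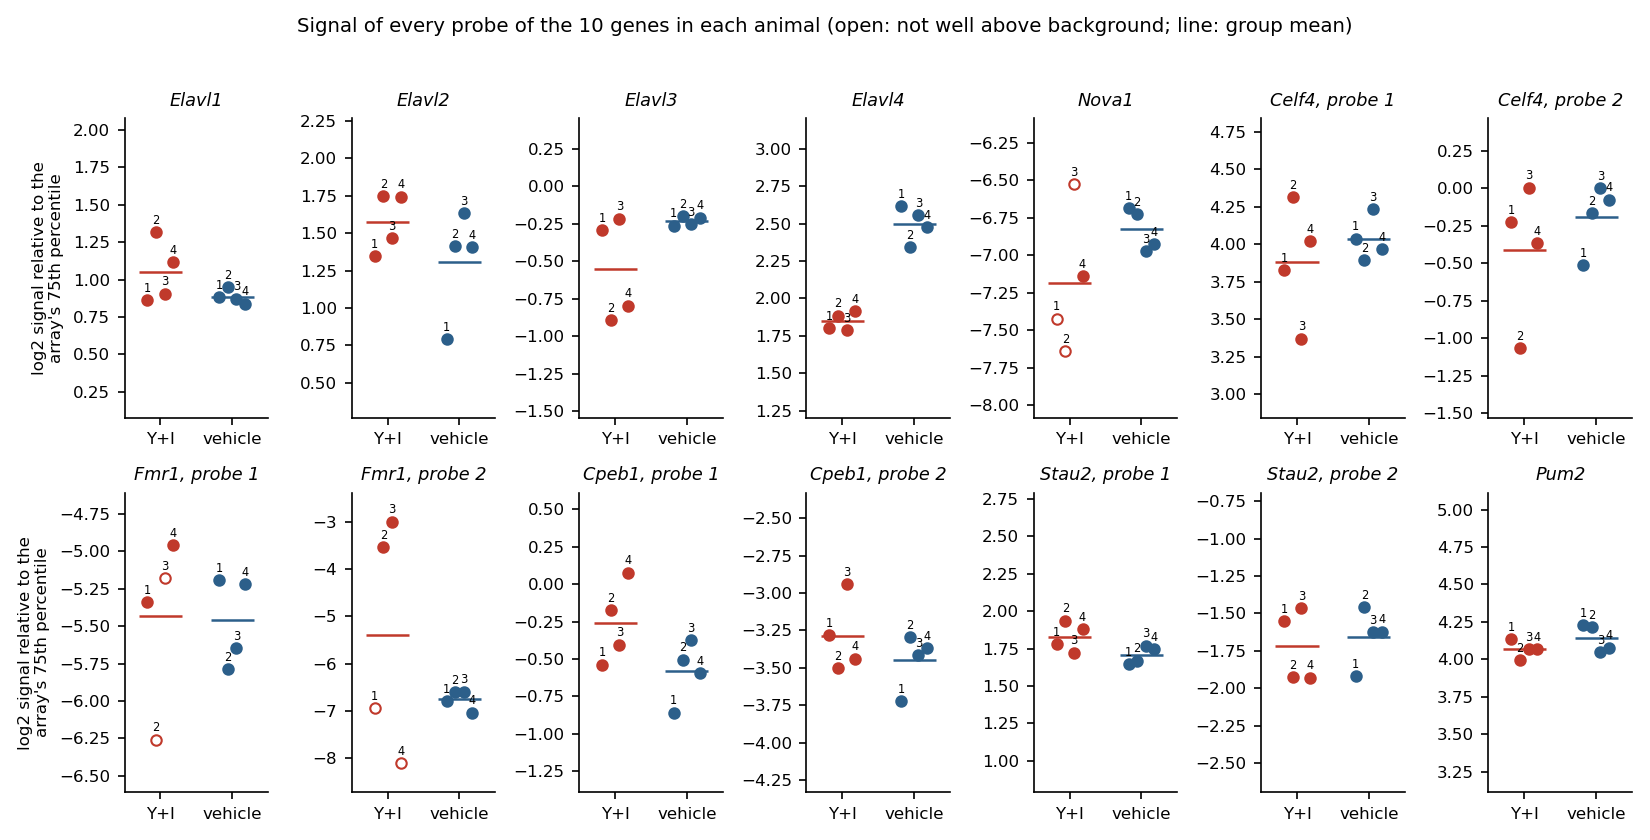
Log2 signal relative to the array's 75th percentile (vertical axis, own scale in each panel) for each of the 14 probes of the 10 members. Each point is 1 animal, with the 4 Y+I animals left of the 4 vehicle animals and a line for each group mean. Open points were not well above background. Elavl4 is the panel in which the groups do not overlap: 1.79 to 1.91 in Y+I animals, against 2.34 to 2.62 in vehicle animals.

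Differences between genes within an array do not depend on how the array was scaled. Elavl4 minus Elavl1 averaged 0.80 ± 0.16 in Y+I arrays and 1.61 ± 0.15 in vehicle arrays (SD, n = 4 each). Elavl4 minus Elavl2 averaged 0.27 ± 0.14 in Y+I arrays and 1.19 ± 0.43 in vehicle arrays. For both pairs the groups did not overlap. Elavl4 minus Elavl3 averaged 2.40 ± 0.40 in Y+I arrays and 2.73 ± 0.15 in vehicle arrays, and these groups overlapped. Against the mean of the other Elavl genes, Elavl4 stood at most at 1.23 in Y+I arrays and at least at 1.62 in vehicle arrays. The means of that measure were 1.15 ± 0.06 in Y+I arrays and 1.84 ± 0.22 in vehicle arrays, a difference of -0.69. These ratios restate the contrast that chose the genes, and nothing is read from them.

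**Figure D2:**
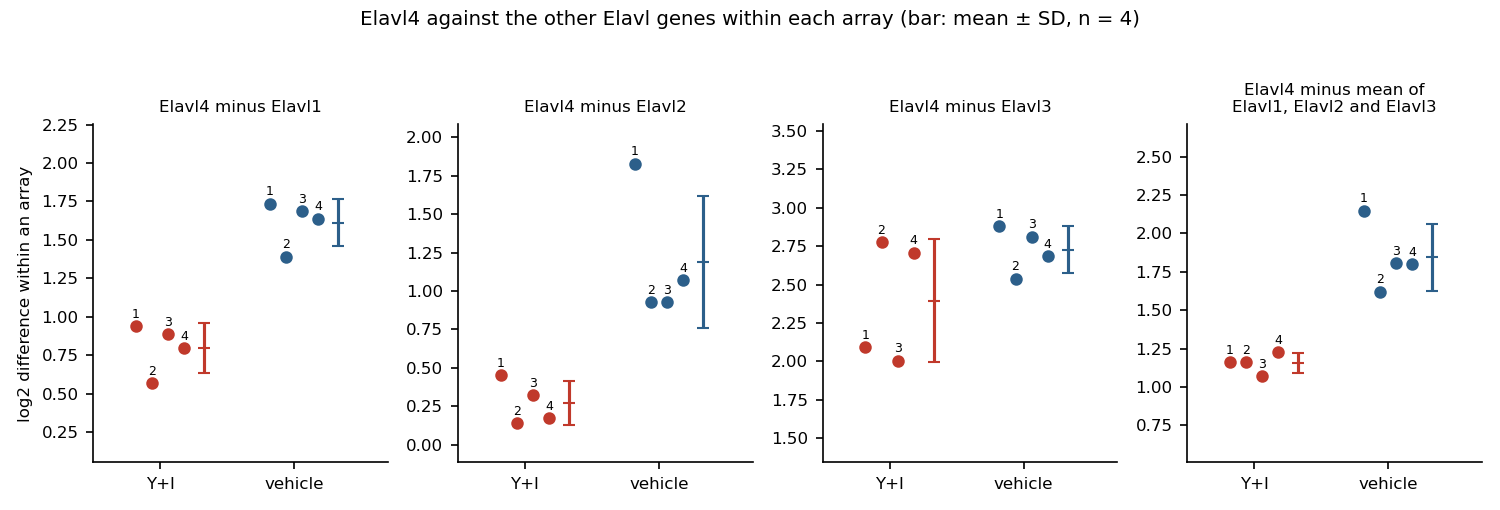
Log2 difference within an array between Elavl4 and Elavl1, Elavl2, Elavl3 or their mean (vertical axis), with 1 point per animal, Y+I left of vehicle, and bars for the mean ± SD (n = 4). Against the mean of the other Elavl genes, Y+I arrays reach at most 1.23 and vehicle arrays are at least 1.62, while the groups overlap for Elavl4 minus Elavl3.

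The summed signals of several marker lists also differed between the groups, though not every marker within them did. In bulk tissue fewer cells of a type and less RNA per cell cannot be told apart. Sums are given in multiples of the array's 75th percentile signal. The 13 general neuron markers summed to 185 to 238 in Y+I arrays, against 178 to 222 in vehicle arrays, and 0 of 13 passed. Without Uchl1, the largest contributor to the group difference, they ran 91.5 to 108 in Y+I arrays, against 96.8 to 113 in vehicle arrays. At an unadjusted p under 0.05 by limma were 2 of the 13, both lower, against 15.6% of all features in either direction. These were Gad1 (-0.29, other probe -0.60) and Syp (-0.38), and 7 of the 13 differences were above 0. The 10 hippocampal principal neuron markers were all measured; they summed to 69.0 to 73.3 in Y+I arrays, against 44.9 to 62.7 in vehicle arrays, with 0 of 10 passing. Without Fibcd1, the gene that contributed most to that gap, the sums overlapped, at 31.8 to 38.9 in Y+I arrays and 30.4 to 41.2 in vehicle arrays. Most of that remaining sum was Dkk3, with log2 means of 4.88 in Y+I and 4.89 in vehicle. The overlap therefore says little about the other markers. By limma 4 of the 10 were at an unadjusted p under 0.05, all higher, against 15.6% of all features in either direction. These were Wfs1 (1.19), Neurod6 (0.59), Fibcd1 (0.57) and Zbtb20 (0.50), and 6 of the 10 differences were above 0. The 10 thalamus and striatum markers summed to 3.32 to 3.83 in Y+I arrays, against 4.80 to 6.74 in vehicle arrays. Of them 2 passed as lower, Slc17a6 and Drd2, and 1 of the 10 differences was above 0. The 7 neocortex markers summed to 3.39 to 3.78 in Y+I arrays, against 4.24 to 5.46 in vehicle arrays. These sums also stayed apart without Nr4a2, the largest contributor, at 0.94 to 1.11 in Y+I arrays and 1.24 to 1.55 in vehicle arrays. Rprm passed as lower; it was well above background on 0 of 4 Y+I arrays and was kept only through the vehicle arrays. Of these lists, 3 hippocampal, 2 thalamus and striatum, and 3 neocortex markers were not well above background on every array, against 0 of the 13 neuron markers.

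Meningeal markers (6 genes, 3 lower) summed to 1.85 to 2.42 in Y+I arrays, against 2.96 to 3.87 in vehicle arrays. Without Igfbp2, which contributed most, these sums stayed apart, at 0.86 to 1.12 in Y+I arrays and 1.34 to 1.73 in vehicle arrays. Blood cell markers (5 genes, 3 lower) summed to 21.1 to 29.3 in Y+I arrays, against 41.2 to 47.8 in vehicle arrays. The blood sums also stayed apart without Hba-a1, at 6.75 to 10.6 in Y+I arrays and 15.2 to 17.5 in vehicle arrays. The genes that passed were Hbb, Hba-a1 and Alas2 of red cells. The other 2, S100a8 and S100a9 of myeloid cells, had differences of 2.18 ± 0.69 and 2.08 ± 0.60 (SE, adjusted p 0.158 and 0.129 by limma), named here after their values were seen. Endothelial and mural markers (8 genes, 1 lower) summed to 5.30 to 6.03 in Y+I arrays, against 6.67 to 7.88 in vehicle arrays. The gene that passed was Kdr, and without it the sums overlapped, at 4.21 to 4.63 in Y+I arrays and 4.11 to 4.97 in vehicle arrays. The sums of astrocyte, oligodendrocyte, microglia and choroid plexus markers overlapped between the groups, and 1 gene of these lists, Aspa of oligodendrocytes, passed as higher. Of 6 listed choroid plexus genes 2 were measured. Ttr ran from -2.80 to 2.14 among vehicle animals alone, so the overlap of that sum says little. The other gene, Folr1, differed by 0.88 ± 0.38 (SE, adjusted p 0.308 by limma), and its groups overlapped. The part of these tissues in the Elavl4 difference was not tested.

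Nova1, the splicing regulator (probe at chr6:66199128-66199187, minus strand), was close to background. It read -7.42, -7.64, -6.53 and -7.14 in Y+I animals, against -6.69, -6.72, -6.97 and -6.93 in vehicle animals. The groups overlapped because Y+I animal 3 was the highest of all 8. It was well above background on 1 Y+I array and all 4 vehicle arrays. On 3 of the 8 arrays the scanner software had put a surrogate value in place of a measured one for at least 1 of its 2 spots. The log2 difference was -0.36 ± 0.22 (SE). It was 0.30 with another background correction and -0.92 after cyclic loess normalisation, where it passed the threshold, so its direction depends on how dim signals are treated.

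Celf4 was read by a pair of probes. The brighter (chr18:17347078-17347137, minus strand) read 3.83, 4.31, 3.37 and 4.02 in Y+I animals, against 4.04, 3.89, 4.23 and 3.97 in vehicle animals. The second (chr18:17360023-17360082, minus strand) read -0.22, -1.07, 0.0045 and -0.36 in Y+I animals, against -0.51, -0.17, 0.0038 and -0.08 in vehicle animals. Y+I animals 2 and 3 stood at opposite ends of the Y+I group on each probe, and their order was turned round between the probes. The log2 differences were -0.15 ± 0.19 (SE) for the brighter probe and -0.22 for the second.

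Fmr1 was read by probes that did not move together, and their sequences are shown so that the molecules behind each value can be told apart. No base is singled out. The first lies at chrX:154782177-154782236. The files place the second at chrX:154786495-154787193, plus strand, which spans 699 bases for a probe of 60 bases.
Fmr1 probe 1: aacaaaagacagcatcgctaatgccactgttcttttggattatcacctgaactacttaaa
Fmr1 probe 2: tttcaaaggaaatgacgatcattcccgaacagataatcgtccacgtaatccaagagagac
Probe 1 read -5.34, -6.26, -5.18 and -4.96 in Y+I animals, against -5.19, -5.79, -5.65 and -5.22 in vehicle animals. These groups overlapped, and the log2 difference was 0.03 ± 0.28 (SE). Probe 2 read -6.94, -3.54, -3.00 and -8.10 in Y+I animals, against -6.79, -6.60, -6.59 and -7.03 in vehicle animals. Y+I animals 2 and 3 stood far above every vehicle animal, Y+I animal 1 lay among them and Y+I animal 4 below them.

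Probe 2 was printed in duplicate on each array. Its spots read -4.91 and -2.18 on the array of Y+I animal 2, and -4.27 and -1.73 on that of Y+I animal 3. The spots read -6.31 and -7.57 for Y+I animal 1, and -7.39 and -8.82 for Y+I animal 4. Both spots were thus high in animals 2 and 3, although the spots of one array also differed from each other. The mean of animals 2 and 3 exceeded that of animals 1 and 4 by 4.25 log2 units, and 1 of the 21370 kept probes, this one, reached that value. This split of the animals was chosen after seeing the probe's values, so nothing is read from its rank. Probe 2 was not well above background on the arrays of animals 1 and 4, so the size of the gap depends on how dim signals are treated. With normexp background correction the gap was 1.60, which 3 kept probes reached. Probe 1 was well above background on 2 Y+I arrays, those of animals 1 and 4, and probe 2 on those of animals 2 and 3. Both probes were well above background on all 4 vehicle arrays. On probe 2 the means were -5.40 ± 2.51 in Y+I and -6.75 ± 0.21 in vehicle (SD, n = 4 each), a difference of 1.35. The cause of the split was not tested.

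**Figure D3:**
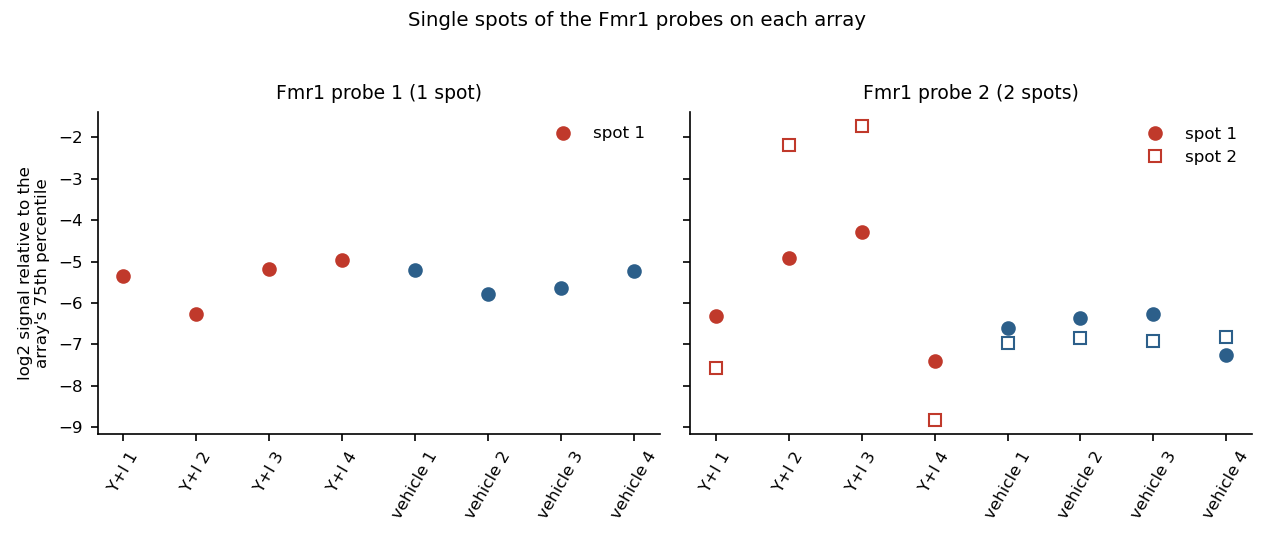
Log2 signal relative to the array's 75th percentile (vertical axis) of every Fmr1 spot by animal, for probe 1 (1 spot per array) and probe 2 (2 spots per array), with Y+I animals left of vehicle animals. On probe 2 both spots of Y+I animals 2 and 3 lie between -4.91 and -1.73, and the spots of the other Y+I animals at -6.31 or below.

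Among the translation regulators, Cpeb1 had a pair of probes with differences of the same sign. The brighter (chr1:137556773-137556832, minus strand) read -0.54, -0.17, -0.40 and 0.08 in Y+I animals, against -0.86, -0.50, -0.37 and -0.60 in vehicle animals. Y+I animals 2 and 4 were the highest of all 8, and the others overlapped with vehicle. The log2 difference was 0.32 ± 0.16 (SE), and 0.11 without Y+I animals 2 and 4. The second probe (chr1:137559041-137559100, minus strand) had a difference of 0.16.

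Stau2 had 2 probes, which the descriptions in the files assign to transcript variants LS and LL; whether each probe reads only that variant was not determined. The LS probe (chr5:2085802-2085861, plus strand) read 1.78, 1.94, 1.72 and 1.88 in Y+I animals, against 1.64, 1.67, 1.77 and 1.75 in vehicle animals. The LL probe (chr5:2181906-2181965, plus strand) read -1.55, -1.93, -1.46 and -1.93 in Y+I animals, against -1.92, -1.46, -1.62 and -1.62 in vehicle animals. Y+I animals 2 and 4 were the highest of their group on the LS probe and the lowest on the LL probe. The log2 differences were 0.12 ± 0.09 (SE) for LS and -0.06 for LL. Pum2 (chr6:32233806-32233865, plus strand) read 4.14, 4.00, 4.07 and 4.07 in Y+I animals, against 4.23, 4.22, 4.05 and 4.08 in vehicle animals. Its groups overlapped, with a difference of -0.07 ± 0.09.

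Over the 10 members, 5 differences were above 0 and 5 below, and the median was -0.02, equal to the -0.02 of all features. Among all features 54.1% were below 0. Of the 10, 7 had a larger SD among Y+I than among vehicle animals. The median SD of all features was also larger among Y+I arrays, at 0.239 against 0.134. The count is therefore not read as a trait of the members. In 7 of the 10, Y+I animals 2 and 4 were both above or both below Y+I animals 1 and 3; this held for 50.1% of the 18800 features with a value on all 4 Y+I arrays. Animals 2 and 4 had the arrays with the lowest 75th percentile. Without those animals, chosen after seeing the data, the differences were -0.0025 for Elavl1, 0.10 for Elavl2, -0.70 for Elavl4, -0.43 for Celf4 and 0.04 for Stau2. The part of array brightness in the spread was not tested.

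**Figure D4:**
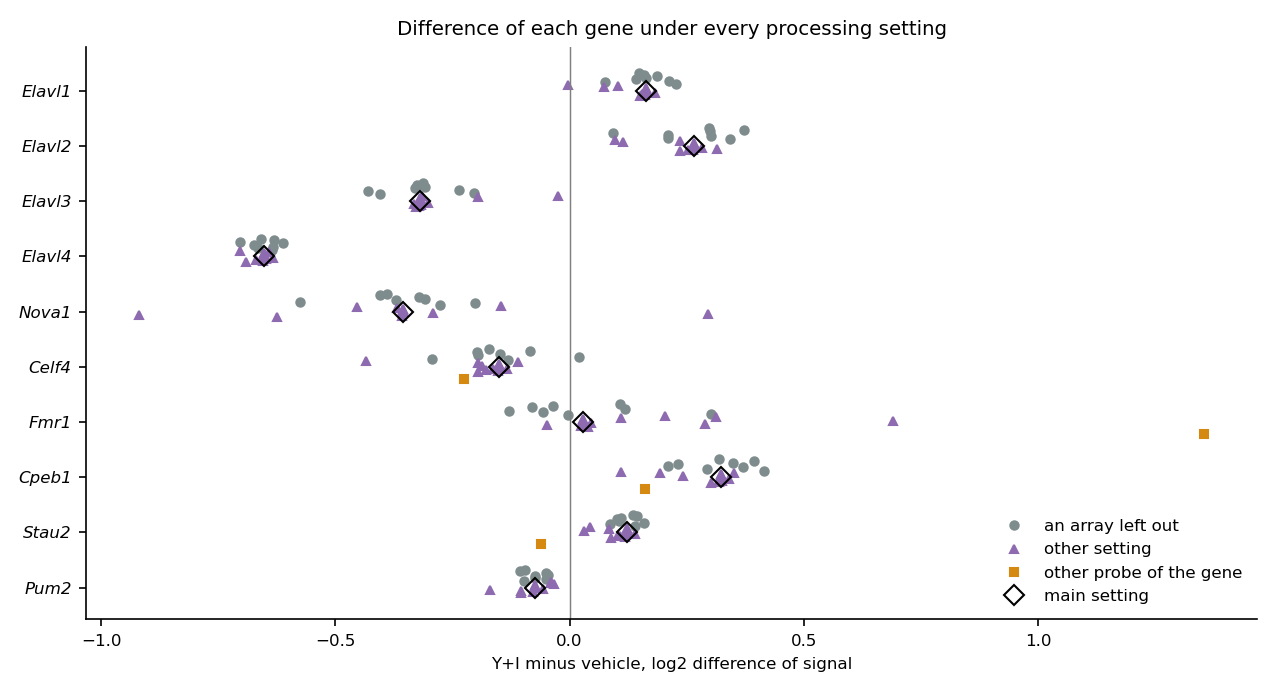
Log2 difference, Y+I minus vehicle (horizontal axis), of each member by its brightest probe in the analysis reported (diamonds), with 1 array left out (circles) and in the other alternatives (triangles), and of the second probes (squares). Elavl4 lies between -0.70 and -0.61, while Nova1 runs between -0.92 and 0.30 and crosses 0.

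Features with a provisional name or only a probe name were left out of this ranking. Of the rest, those whose values ran most like Elavl4 over the 8 arrays were Scx, Fxyd6 and Dpp10. Scx, a transcription factor of tendon, had a Pearson r of 0.995 and a log2 difference of -0.76. Fxyd6, a regulator of the sodium pump, had 0.990 and -1.45, and Dpp10, a subunit of potassium channels, 0.989 and -0.80. The features most like Nova1 were Qki, an RNA-binding protein of glia (0.960, -0.18), Ccdc191 (0.950, -0.26) and Myo5b, a motor protein (0.943, -0.49). On 3 of the 8 arrays at least 1 spot of Nova1 held a surrogate, so its correlations rest in part on values that were not measured. The arrays also share a treatment difference, which enters each correlation.

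None of the other RNA-binding protein genes passed the limma threshold. Of 54 listed, 51 were on the array and 47 were measured, with 0 called and 8 at an unadjusted p under 0.05 (7 higher, 1 lower); among all features 15.6% were under that value. Their median difference was 0.08, beside -0.02 for all features, of which 54.1% were below 0. Among 17 splicing regulators the median was 0.15, with 11 above 0. Rbfox1, a neuronal splicing factor, read 3.92, 3.85, 4.01 and 4.02 in Y+I animals, against 3.49, 3.56, 3.62 and 3.75 in vehicle animals. These groups did not overlap, which held for 11.7% of all features in either direction. The difference was 0.35 ± 0.10 (SE), with an adjusted p of 0.115 by limma. Celf6, a relative of Celf4, also had groups apart, at -0.41 ± 0.12 (adjusted p 0.131 by limma). Celf3, another relative, differed by 0.54 ± 0.21 (adjusted p 0.251 by limma), with Y+I animals 2 and 4 highest.

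Among 24 regulators of mRNA transport and translation, 18 differences were above 0 and the median was 0.06, while 54.1% of all features were below 0. Syncrip, a component of neuronal RNA granules, had groups apart, as did 11.7% of all features, at 0.27 ± 0.09 (adjusted p 0.182 by limma). Igf2bp2, which binds and stabilises mRNAs, gave 0.58 ± 0.22 (adjusted p 0.244 by limma), and its other probe gave -0.33. Tardbp, the TDP-43 gene, gave 0.26 ± 0.11 (adjusted p 0.311 by limma). The 6 AU-rich element binding proteins outside the Elavl family had a median of 0.05, with Tial1 at 0.23 ± 0.11, Khsrp at 0.11 ± 0.17 and Zfp36l1 at -0.10 ± 0.13 (adjusted p 0.376, 0.812 and 0.768 by limma).

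Transcripts described as bound by Elavl proteins showed no shared direction. Of 12 measured, 0 passed the limma threshold, 2 were at an unadjusted p under 0.05, and the median was 0.04. Nrn1, a plasticity protein also called neuritin, read 1.12, 1.52, 1.26 and 1.54 in Y+I animals, against 0.63, 0.87, 0.93 and 0.78 in vehicle animals. These groups did not overlap, with a difference of 0.56 ± 0.13 (SE, adjusted p 0.0643 by limma); it passed in 5 of 21 alternatives. Gap43, a growth-cone protein whose mRNA is a classic Elavl4 target, read 1.45, 0.98, 1.97 and 0.83 in Y+I animals, against 1.72, 2.12, 2.19 and 2.23 in vehicle animals. Its groups overlapped at Y+I animal 3, and the difference was -0.76 ± 0.24 (adjusted p 0.165 by limma). It was -0.36 without Y+I animals 2 and 4, and -0.98 without Y+I animal 3 (adjusted p 0.0456 by limma). That last fit, which left out the overlapping animal, was the 1 of 21 alternatives in which Gap43 passed. Fos, an immediate early gene, gave -0.61 ± 0.27 (adjusted p 0.325 by limma).

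Of 12 transcripts described as bound by the Fmr1 protein, 1 passed as higher and 1 as lower, and the median was 0.13. Camk2a, a kinase of the postsynaptic density, was higher, at 0.36, 0.54, 0.36 and 0.77 in Y+I animals, against -0.57, -0.38, -0.02 and -0.12 in vehicle animals. The difference was 0.78 ± 0.15 (SE, adjusted p 0.0366 by limma); it passed in 0 of the 8 fits that left out 1 animal. Kcnd2, a potassium channel subunit of dendrites, had groups apart at 0.46 ± 0.11 (adjusted p 0.0772 by limma). Mmp9, a secreted protease, was lower, at -6.96, -7.28, -7.27 and -6.66 in Y+I animals, against -5.61, -5.29, -5.32 and -5.06 in vehicle animals. The difference was -1.72 ± 0.17 (adjusted p 0.00541 by limma). It was well above background on 1 of 4 Y+I arrays and was kept only through the vehicle arrays. Its passing is therefore not read as a test. With another background correction the difference of Mmp9 was -0.21 (adjusted p 0.391 by limma).

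**Figure D5:**
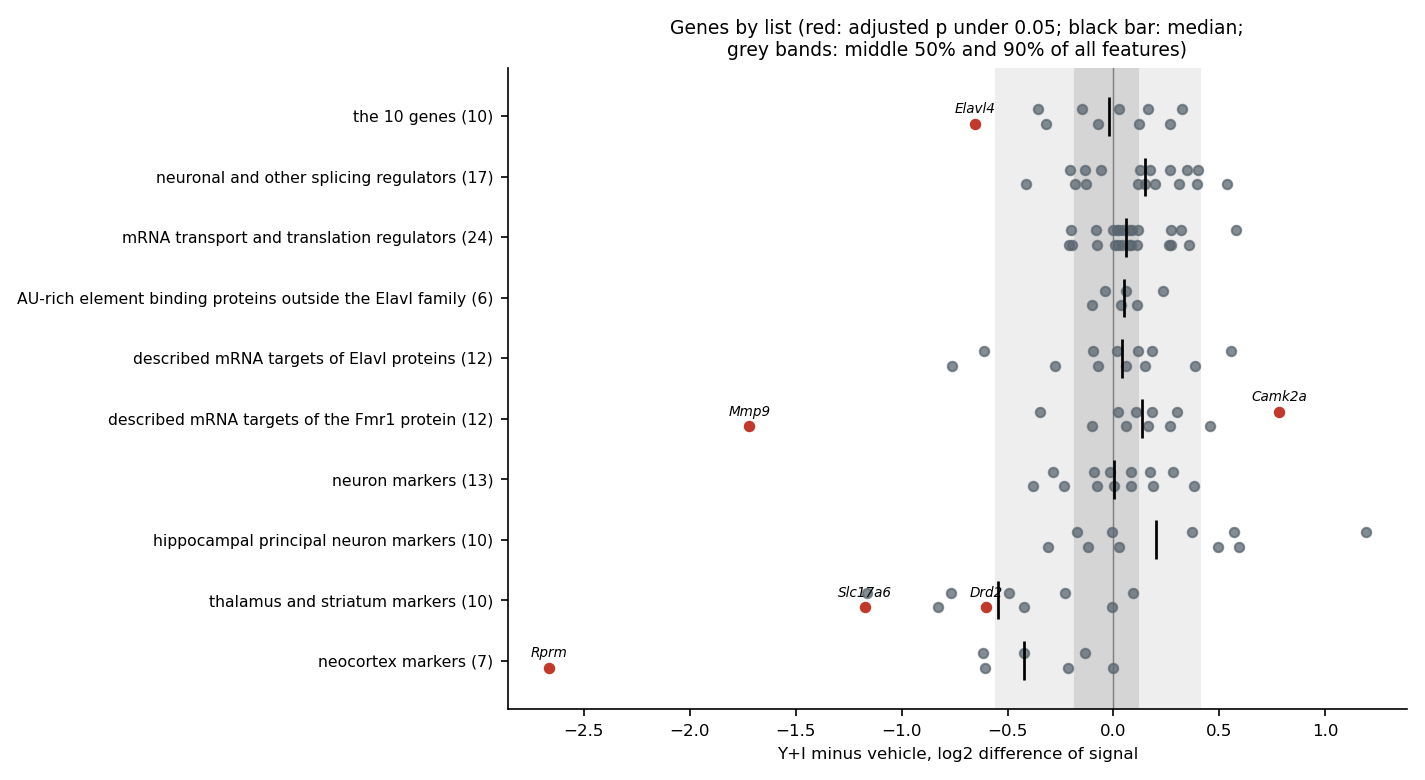
Log2 difference, Y+I minus vehicle (horizontal axis), of each measured gene of the members, the lists of RNA-binding protein genes and of described mRNA targets, and 4 marker lists, with 1 point per gene, black bars for list medians, grey bands for the inner and outer spread of all features, and red for genes past the limma threshold. The RNA-binding protein and target lists have medians between 0.04 and 0.15, and among them Camk2a (0.78) and Mmp9 (-1.72) are red. Mmp9 was kept only through the vehicle arrays.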

How the data were processed

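Hippocampal RNA of 4 Y+I and 4 vehicle rats was labelled with Cy3 and hybridised to Agilent rat arrays, per the labels' protocols. Per the file headers, the deposited scanner files hold spot intensity read by Agilent Feature Extraction 10.5.1.1, with a processed signal that is background-subtracted and not scaled between arrays. A table of log2 values from the authors was deposited too, with no statement of scale or centring in the labels. Its columns correlated with the scanner values at r of at least 0.9986, with medians between -3.51 and -3.35 and a 75th percentile near 0, and it served as an alternative.

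Outlier spots were left out. Processed signals were taken to log2 minus the array's 75th percentile, and spots of a probe were averaged. Near background the processed signal can be a surrogate, which affects dim probes. The filter kept 21370 of 30367 probes, those well above background on every array of at least 1 group by at least 50% of their spots, with 3 or more values in each group. Gene symbols come from RefSeq (assembly GRCr8) (18004 probes by accession, 2320 by symbol, 626 by synonym, 1999 by the file's name, 7418 unnamed). Each gene was represented by its brightest kept probe, giving 18803 features. Probe positions are rn4, per the file headers; which part of a transcript each probe reads was not determined.

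Groups were compared with limma 3.58.1 in R 4.3.3 (lmFit, eBayes), two-sided, with Benjamini-Hochberg adjustment over all features and a threshold of 0.05. The fit was run on simulated data with independent values and the same SD in both groups. The real groups differed in spread, so that run does not show how the fit behaves under unequal spread. Figures were drawn in Python 3.11.15 with matplotlib 3.10.9. The members and gene lists were chosen with earlier results of these data known. Named genes were all members and each list's genes past the threshold or otherwise up to 3 with the smallest p. The 3 features most correlated with each of the 2 members of largest difference were named too, leaving out provisional and probe names. Fibcd1, Dkk3, Uchl1, Zfp36, S100a8 and S100a9 were named outside this rule. Alternatives covered scaling, background correction, the value table, filters, probe choice, variance settings, the animal number as a block and leaving out animals.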

Additional observations from a re-analysis of the deposited data

How the results depend on the processing

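The analysis reported called 439 features, 1 member (Elavl4) and 0 of the other RNA-binding protein genes. Cyclic loess normalisation called 713 features and 2 members, Elavl4 and Nova1. Without the filter on dim probes 3887 features and 1 other RNA-binding protein gene, Zfp36, were called. Leaving out Y+I animals 2 and 3 gave 170 features, 0 members and 1 other RNA-binding protein gene, Igf2bp2; leaving out Y+I animals 2 and 4, chosen after seeing the data, gave 240 features. Leaving out 1 animal at a time gave 120 to 348 features, 0 to 1 members and 0 to 1 other RNA-binding protein genes: no member was called without vehicle animal 4 (120 features), and Igf2bp2 was called without Y+I animal 3. The cause of these changes was not tested.

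The animal numbers are shared between the groups in the labels. Deviations of same-numbered animals correlated at 0.05, -0.11, -0.04 and 0.04, and 1 of 4 Y+I animals correlated best with its own number, so the numbers were not taken as pairs. With the number as a replicate block 144 features and 0 members were called.

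The share of calls that were higher in Y+I was 31.7%. It was 60.2% of 515 calls with normexp background correction, 86.5% without the filter on dim probes, 43.3% with a filter on all 8 arrays and 18.6% without Y+I animal 4. The median of all features was 0.08 with normexp. The filter on all 8 arrays removed Nova1, Fmr1 and Mmp9. Mmp9 was not called in the value table (-1.35, adjusted p 0.0874 by limma), and Camk2a was called in 9 of 21 alternatives. Dim probes such as those of Nova1, Fmr1 and Mmp9 limit what the signal over background can show.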
